A study of Schizosaccharomyces pombe with 12 samples.

Results

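What changed in the RNA of fission yeast during the first 2 h after the cells left rich medium was read from the comparison of wild-type cells harvested 2 h after transfer to ePMGT(+PO4) with the same strain growing in YES at 0 h. Of 6988 annotated features in the table, 5373 averaged 100 or more normalized reads at either time and were kept. The kept set held 4795 coding features and 578 non-coding features or pseudogenes, and no kept feature lacked a test. The level was the only criterion for keeping a feature, so neither the direction nor the size of its change chose it.

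The study sequenced poly(A)+ RNA of 1 haploid *h-* strain of *Schizosaccharomyces pombe*, AGP72, in 12 libraries, 3 at each of 0, 2, 4 and 8 h. The 2 h cells had been spun down, washed and moved at 30 °C into ePMGT(+PO4), a defined medium with glutamate, thiamine and ample phosphate. The 0 h cells were in log phase in YES, which is made from yeast extract plus supplements. Strain lists of the study give mutant forms of 4 marker genes for its strains, and of these *ura4* was listed at 0 in both groups, whereas *his3* averaged 212 at 2 h and 281 at 0 h, *ade6* 3382 and 3611, and *leu1* 7628 and 9088. No YES culture was taken at 2 h, so the new medium cannot be told apart from the handling and the time that went with it.

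Yeast extract supplies amino acids, peptides, nucleobases, vitamins and metals that a cell in a defined medium must take up in other forms or make. In fission yeast, genes for ribosomes and their assembly make up a large share of mRNA during rapid growth and are tuned together with nutrient supply through the TOR and protein kinase A pathways. Heat shock proteins are controlled by the heat shock factor and by the stress kinase Sty1, and nitrogen and metal uptake genes by their own sensors.

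The tables hold group averages and not the value of each library, so every level below is the authors' mean of 3 libraries, in reads divided by the library's size factor. Each log2 ratio is that of the 2 h average over the 0 h average, given with its deposited standard error (SE). Rose and fell are used for a kept feature whose ratio passed a Wald test at a Benjamini-Hochberg adjusted p of 0.05 or less, and p-values reflect the spread between libraries in the authors' fit, which may hold more than the libraries compared here. The averages of all features summed to 16787779 at 2 h and 16948069 at 0 h. The median SE of kept features was 0.0628, and 4408 of them had an SE of 0.1 or less. The M-factor transporter gene *mam1* averaged 1163 at 2 h and 1080 at 0 h, and the M-factor gene *mfm2* 736 and 730, as an *h-* strain should express them. Genes of the other mating type were detected too, with the receptor gene *map3* at 343 at 2 h and 348 at 0 h. All 36 features encoded in mitochondria stayed under the level for keeping.

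Small changes made up most of the response. Of the 5373 kept features, 1902 passed the test in either direction, a background of 35.4%. They split into 1023 that rose (19.0%) and 879 that fell (16.4%). Only 90 rose by 2-fold or more (1.68%), and 7 fell by 2-fold or more (0.130%), so 1805 of the 1902 calls (94.9%) were of less than 2-fold. The median feature that rose was 1.2-fold higher at 2 h, and the median one that fell was 1.16-fold lower. The smallest ratio to pass was 1.06-fold. The log2 ratios of all kept features had a median of -0.00147, quartiles of -0.114 and 0.117, and 5th and 95th percentiles of -0.292 and 0.472.

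The spread of folds was uneven between the directions. Between 1.1- and 1.2-fold, 409 features rose and 481 fell. Between 1.5- and 2-fold, 96 rose and 40 fell, and above 4-fold 31 rose and 0 fell. Rises thus reached further than falls, although the counts in the 2 directions were close.

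The falls weighed more on the read total than the rises of large fold. Features that fell by less than 2-fold held 30.6% of all normalized reads at 2 h and 36.0% at 0 h. Features that rose by less than 2-fold held 19.4% at 2 h and 15.6% at 0 h. The 90 features that rose by 2-fold or more held 2.38% at 2 h and 0.57% at 0 h. Summed over features, the smaller rises added 612540 reads to the averages and the rises of 2-fold or more added 302406. The smaller falls changed the averages by -957857.

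Direction went with the level of the transcript. Among the 325 kept features whose 2 averages had a mean of 10000 or more, 162 fell (49.8%) and 51 rose (15.7%), with a median log2 ratio of -0.137. Among the 1079 with a mean under 500, 107 fell (9.92%) and 215 rose (19.9%). The abundant group contained 117 cytosolic ribosomal protein genes, of which 83 fell. The other 208 abundant features had a median of -0.0618, and 79 of them fell (38.0%) and 51 rose.

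Gene classes were built from the Product text of the tables, 63 in all, and 61 of them had at least 5 kept members. They are described by counts and medians beside the background, with no test of a class. Their medians ran from 0.46 for hexose and other sugar transporters down to -0.17 for 60S ribosomal proteins, and 36 of the 61 lay above the median of all kept features. The classes that stood furthest from the background in the share that fell were both ribosomal subunits, nucleotide synthesis, translation factors, ribosome assembly and heat shock proteins. Those furthest in the share that rose were histones, sugar transporters, nitrogen source use, metal, plasma membrane and amino acid transporters, which share members, V-type ATPase, other non-coding RNAs, respiration and kinases.

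**Figure D1:**
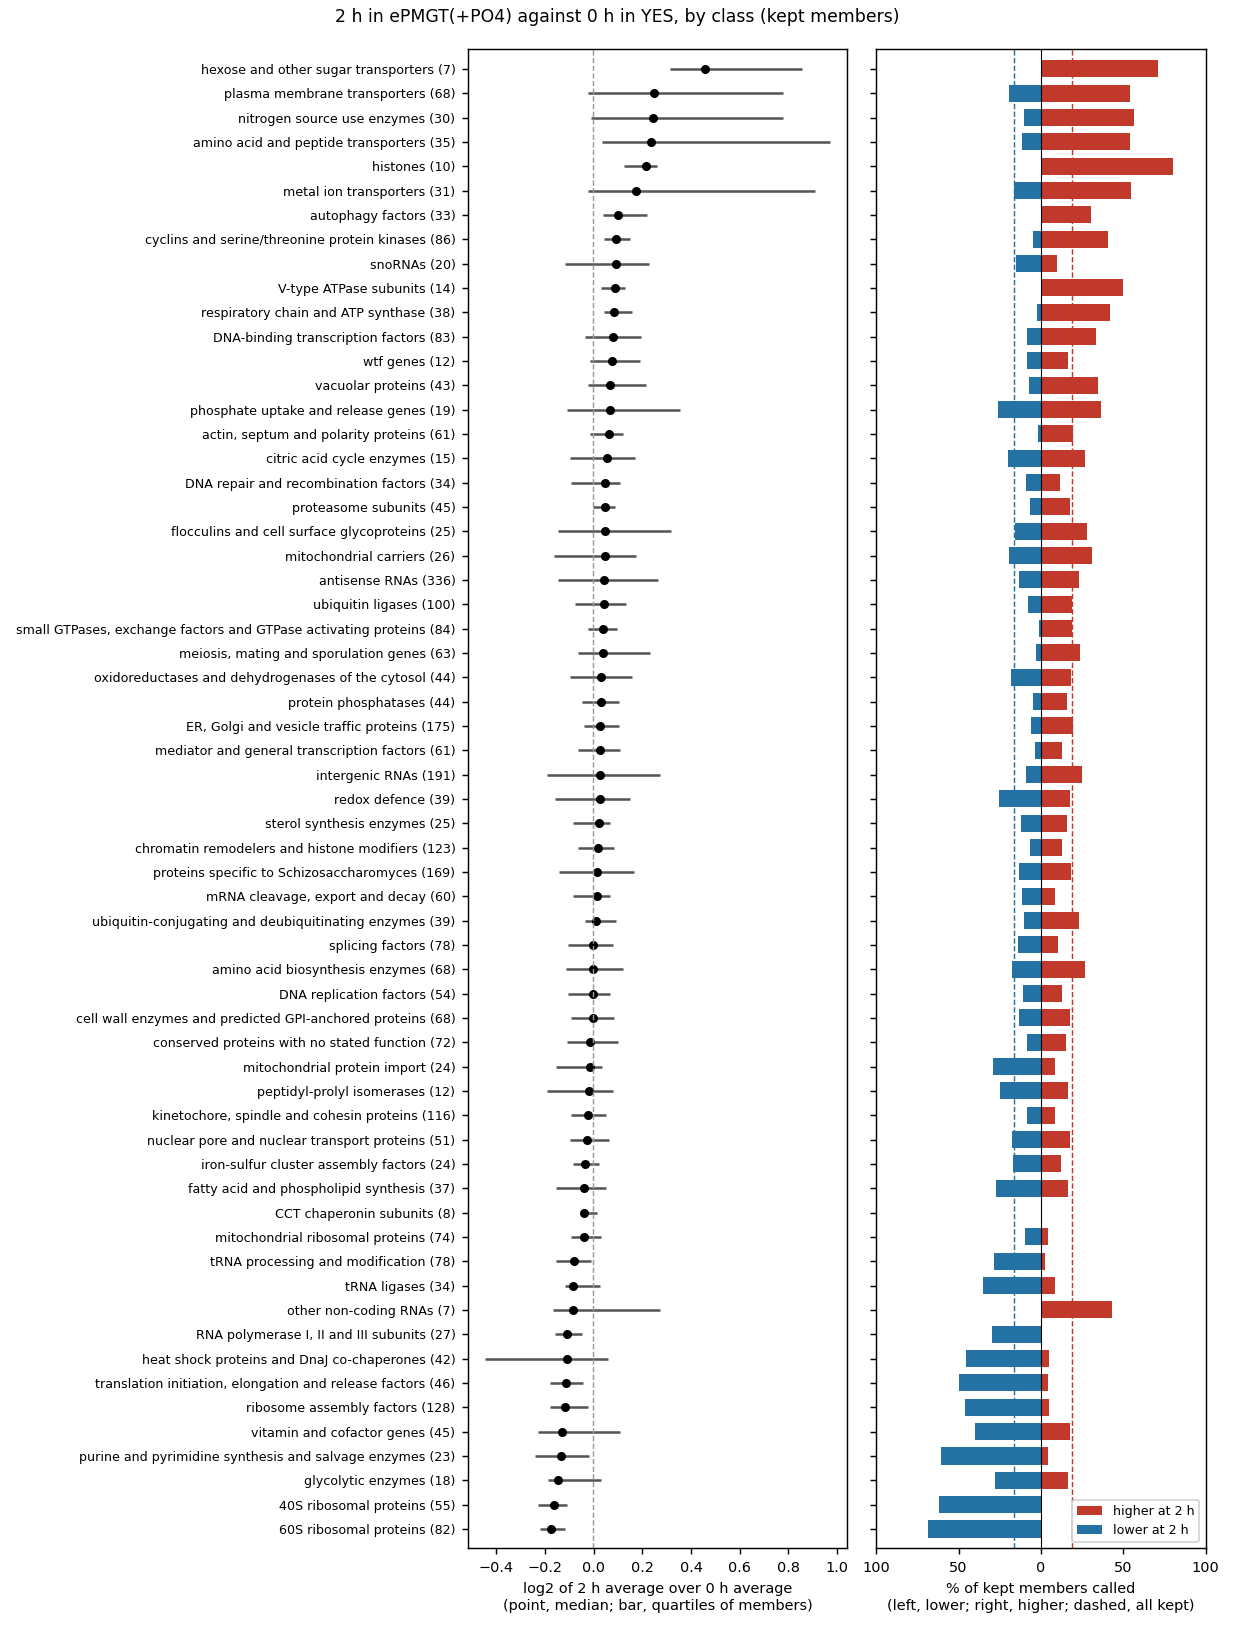
Gene classes with at least 5 kept members, ordered by median log2 ratio of the 2 h average over the 0 h average (left, points with bars for the quartiles of members), beside the percent of members that rose (red) or fell (blue) by the test (right). The dashed lines mark the median of all kept features and the backgrounds of 19.0% higher and 16.4% lower; the ribosomal protein classes lie at the bottom with no member higher, and histones have no member lower.

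The machinery of translation fell broadly and by little. Of 137 cytosolic ribosomal protein genes, 90 fell (65.7%) and 0 rose by the Wald test, with 1 higher at an unadjusted p under 0.05, and 126 had a lower average at 2 h than at 0 h. The median log2 ratio was -0.17 and the range was -0.40 to 0.25. Both subunits were lower, with 34 of 55 genes lower and a median of -0.16 for the 40S subunit, and 56 of 82 genes lower and a median of -0.17 for the 60S subunit. Together these genes held 15.4% of all normalized reads at 2 h and 17.1% at 0 h.

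The lowest ratio in the class belonged to *rpl801*, for an L8/L2 protein, which averaged 28001 at 2 h and 36823 at 0 h (log2 ratio -0.40 ± 0.13). Its paralogue *rpl802* averaged 10958 and 13633 (-0.32 ± 0.08), and *rpl803* fell too (-0.25 ± 0.10). The most abundant 60S gene, *rpl13*, averaged 50274 at 2 h and 60674 at 0 h (-0.27 ± 0.10), and the most abundant 40S gene, *rps7*, averaged 47247 and 53941 (-0.19 ± 0.06). The genes at the other end did not pass the test, as with *rpl4102* at 10306 and 8691 (0.25 ± 0.11). The many near-identical pairs in this class can share reads, which leaves the values of single copies uncertain. These changes are close to the limit of the measurement: 10 of the 137 passed as lower with an SE 1.5 times the deposited one, and 1 passed when tested against a 1.1-fold change.

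The factors that build and feed the ribosome went the same way. Of 128 ribosome assembly factors, 59 fell and 6 rose (median -0.12). Among those that fell, *urb1*, for a biogenesis protein of the large subunit, averaged 829 at 2 h and 1112 at 0 h (-0.42 ± 0.07), and *sqt1*, a chaperone-like assembly protein, 2337 and 2970 (-0.35 ± 0.05). Among the few that rose, the most abundant of the class, the nucleolin-like *gar2*, averaged 26569 at 2 h and 24667 at 0 h (0.11 ± 0.04).

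Translation factors held 23 of 46 genes that fell and 2 that rose (median -0.11). All 10 elongation factors had a lower average at 2 h, and 5 of them passed the test. The elongation factor eEF3, from *tef3*, averaged 81015 at 2 h and 92027 at 0 h (-0.18 ± 0.07), and *eft202*, for EF-2, 6836 and 8481 (-0.31 ± 0.07). The rises were small: *sui1*, for the start-codon factor eIF1, averaged 8191 and 7558 (0.12 ± 0.04).

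Genes that charge and modify tRNA fell in 12 of 34 ligases (median -0.08) and in 22 of 78 processing and modification factors (median -0.08). Cytosolic and mitochondrial ligases contributed 7 of 17 and 5 of 17 of the falls. Subunits of RNA polymerases I, II and III fell in 8 of 27 cases and rose in 0, also at an unadjusted p under 0.05 (median -0.11), with *rpa12* at 1117 at 2 h and 1399 at 0 h (-0.32 ± 0.06). All of these together made 447 genes, 213 of which fell and 13 rose, and they held 23.7% of reads at 2 h and 26.1% at 0 h. With an SE 1.5 times larger, 20 assembly factors, 7 translation factors, 2 ligases, 5 tRNA processing factors and 3 polymerase subunits passed as lower. The separate ribosome of mitochondria stood outside the pattern, with 7 of 74 protein genes lower and 3 higher (median -0.04).

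Several chaperones had ratios lower than that of any ribosomal protein gene. Of 42 heat shock and DnaJ genes, 19 fell and 2 rose, and 16 of the 42 passed as lower with an SE 1.5 times the deposited one. The class held 2.46% of reads at 2 h and 3.26% at 0 h. The most abundant member, *ssa2*, for a cytosolic Hsp70, averaged 96744 at 2 h and 149616 at 0 h (-0.63 ± 0.07), the largest loss of reads of any feature. The loss of *hsp90* was next, with 55340 at 2 h and 85228 at 0 h (-0.62 ± 0.05). Hsp70 and Hsp90 bind unfolded or immature proteins and work with co-chaperones, of which some fell and others did not pass.

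A list of Hsp90 and 7 co-chaperones, put together after values were seen, had 6 of 8 lower and a median of -0.60. Among those partners, *sti1*, which links Hsp70 to Hsp90, averaged 9389 at 2 h and 16155 at 0 h (-0.78 ± 0.05). The cyclophilin co-chaperone gene *wis2* averaged 7413 and 13433 (-0.86 ± 0.05), and the p23 gene *wos2* 12235 and 18326 (-0.58 ± 0.04). The Hsp90 activator gene *aha1* averaged 3738 at 2 h and 5747 at 0 h (-0.62 ± 0.05). The 4 ratios lay between -0.86 and -0.58, around that of *hsp90*. The kinase-specific co-chaperone gene *cdc37* did not pass the test, with 2605 and 2726 (-0.07 ± 0.05).

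Some co-factors of Hsp70 fell too: the Hsp40 genes *mas5*, with 9735 at 2 h and 14721 at 0 h (-0.60 ± 0.05), and *psi1*, with 2073 and 3455 (-0.74 ± 0.08), and the exchange factor gene *fes1*, with 1860 and 3024 (-0.70 ± 0.07). Mitochondrial chaperones followed, as *mcp60*, for Hsp60, averaged 26912 at 2 h and 36582 at 0 h (-0.44 ± 0.05) and its partner *hsp10* 9649 and 14036 (-0.54 ± 0.05). The endoplasmic reticulum Hsp70 gene *bip1* fell less, with 27298 and 30714 (-0.17 ± 0.04).

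Chaperone classes did not all move. None of the 8 kept genes of the CCT chaperonin, which folds actin and tubulin, passed the Wald test, and 0 had an unadjusted p under 0.05, with log2 ratios from -0.08 to 0.03. Of the 2 heat shock class members that rose, the small heat shock gene *hsp9* averaged 10018 at 2 h and 4707 at 0 h (1.09 ± 0.13). The other rise was under 2-fold.

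**Figure D2:**
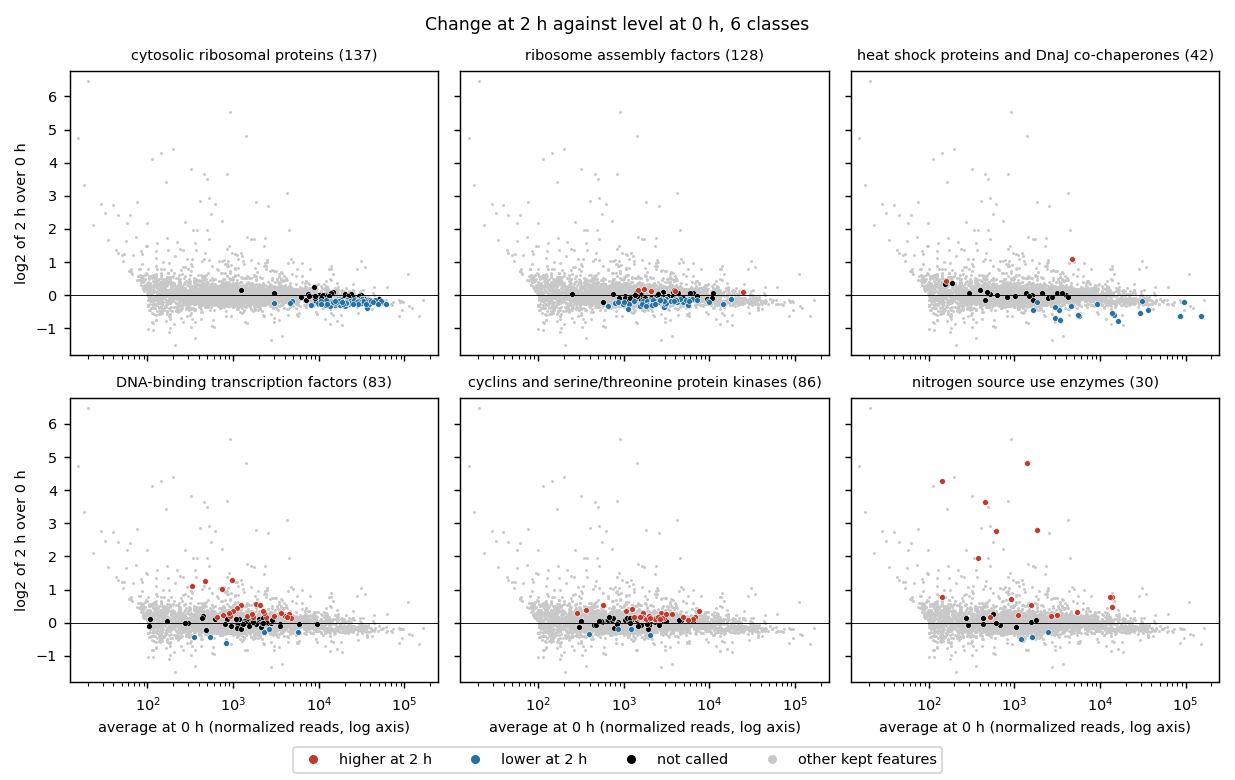
Log2 ratio of 2 h over 0 h (vertical axis) against the 0 h average (horizontal, log axis) for all kept features (grey) and 6 classes, with members that rose in red, that fell in blue and that did not pass in black. Ribosomal proteins form a tight band just under 0 at high levels, heat shock proteins reach -0.78, and transcription factors, kinases and nitrogen genes lie mostly above 0.

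Vacuolar and autophagy genes rose in a larger share than the 19.0% of all kept features. Of 43 vacuolar proteins, 15 rose (34.9%) and 3 fell (median 0.07). The vacuole is the degradative compartment of yeast, and among its enzymes the serine protease gene *isp6* averaged 4106 at 2 h and 2393 at 0 h (0.78 ± 0.13), the carboxypeptidase gene *cps1* 5949 and 3718 (0.68 ± 0.05) and *cpy1*, for carboxypeptidase Y, 24175 and 20617 (0.23 ± 0.06). The vacuolar amino acid transporter gene *fnx2* rose with them (1318 at 2 h and 942 at 0 h, 0.49 ± 0.07).

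Of 33 autophagy genes, 10 rose and 0 fell by the Wald test, with 0 lower at an unadjusted p under 0.05 (median 0.10). Among them were the kinase gene *atg1* with 1369 at 2 h and 1068 at 0 h (0.36 ± 0.07) and *atg8*, for the ubiquitin-like protein of the autophagosome, with 1045 and 876 (0.25 ± 0.05). With an SE 1.5 times larger, 3 of the 33 passed. Of 14 V-type ATPase subunits, which acidify the vacuole, 7 rose and 0 fell, with 1 lower at an unadjusted p under 0.05, and 6 of the 7 were among the 8 subunits of the V1 sector. With the wider SE, 1 of the 14 passed. Proteasome subunits were near the background in rises, with 8 of 45 higher (17.8%) and 3 lower (median 0.05), and 1 passed as higher with the wider SE.

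In energy metabolism the abundant glycolytic genes had no stable direction by count, and the respiratory genes rose more often than they fell. The 18 glycolytic and fermentative genes held 5.0% of reads at 2 h and 5.77% at 0 h, and 5 of them fell and 3 rose (median -0.15). The phosphoglycerate kinase gene *pgk1* averaged 69234 at 2 h and 94716 at 0 h (-0.45 ± 0.08), *tdh1*, for glyceraldehyde-3-phosphate dehydrogenase, 93082 and 121049 (-0.38 ± 0.14), and the enolase gene *eno101* 89332 and 113014 (-0.34 ± 0.13). The aldolase gene *fba1*, the most abundant of the class, did not pass with 149092 and 165622 (-0.15 ± 0.14), and these SEs compare with a median of 0.0540 for features at a mean of 10000 or more. With an SE 1.5 times larger, or against a 1.1-fold change, 1 of the 18 passed as lower and 2 as higher, and with averages scaled to equal totals 3 were lower and 3 higher.

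Among the 3 that rose were isozymes of lower level. The second glyceraldehyde-3-phosphate dehydrogenase gene, *gpd3*, averaged 5070 at 2 h and 3449 at 0 h (0.56 ± 0.12), and the mitochondrial alcohol dehydrogenase gene *adh4* 5930 and 4627 (0.36 ± 0.06). The main alcohol dehydrogenase gene *adh1* fell, with 80584 at 2 h and 90998 at 0 h (-0.18 ± 0.07). So did *adh8*, of the same Product and a lower level than *adh4*, with 440 at 2 h and 602 at 0 h (-0.45 ± 0.09).

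Of 38 kept nuclear genes for the respiratory chain and ATP synthase, 16 rose and 1 fell (median 0.09). ATP synthase contributed 10 of the rises from 18 genes, with *atp19* at 1874 at 2 h and 1463 at 0 h (0.36 ± 0.07). With an SE 1.5 times larger, 5 of the 38 passed as higher. Citric acid cycle genes were mixed, with 4 of 15 higher and 3 lower. Citrate synthase, from *cit1*, averaged 14920 at 2 h and 12217 at 0 h (0.29 ± 0.05), whereas the succinate dehydrogenase gene *sdh3* averaged 4731 and 5480 (-0.21 ± 0.05).

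Uptake at the cell surface was among the most changed groups. Of 68 plasma membrane transporters, 37 rose and 13 fell, and they held 1.32% of reads at 2 h and 0.950% at 0 h. Only 14 of the 37 rose by 2-fold or more. Of the smaller rises, the glucose and fructose symporter gene *ght2* averaged 5890 at 2 h and 3587 at 0 h (0.72 ± 0.04). The most abundant hexose transporter, *ght8*, did not pass with 17741 at 2 h and 18016 at 0 h (-0.02 ± 0.05). Outside the class, the proton pump gene *pma1*, which powers uptake, fell to 59035 at 2 h, against 72302 at 0 h (-0.29 ± 0.06).

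Enzymes of the methyl cycle, which make S-adenosylmethionine and spend it on phospholipid methylation, gained many reads. In a list of 17 such genes and their folate and glycine partners, put together after their values were seen, 13 rose and 2 fell (median 0.75), with 2.53% of reads at 2 h and 1.53% at 0 h. The homocysteine methyltransferase gene *met26* averaged 171027 at 2 h and 110525 at 0 h (0.63 ± 0.06), the largest gain of reads of any feature. The S-adenosylmethionine synthetase gene *sam1* averaged 63128 and 30858 (1.03 ± 0.04), and *SPBC8D2.18c*, for adenosylhomocysteinase, 49119 and 28272 (0.80 ± 0.05). The 3 enzymes act in sequence around the cycle.

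Genes of the branches of the cycle rose too. The serine hydroxymethyltransferase gene *shm1* averaged 62293 at 2 h and 34283 at 0 h (0.86 ± 0.05), while its paralogue *shm2* did not pass with 2720 and 2805 (-0.04 ± 0.05). The glycine cleavage genes *gcv1*, *gcv2* and *gcv3* rose by 0.75 ± 0.04, 0.80 ± 0.04 and 0.74 ± 0.04 on the log2 scale. The phosphatidylethanolamine methyltransferase gene *cho2* averaged 12667 at 2 h and 6442 at 0 h (0.98 ± 0.03), the rise under 2-fold with the largest Wald value.

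Other amino acid synthesis showed no common direction. Of 68 enzymes in all, 18 rose and 12 fell (median -0.0017). The class held 4.56% of reads at 2 h and 3.91% at 0 h, with *met26* and *shm1* among its members. Arginine genes rose slightly in 5 of 10 cases with 0 lower, among them *arg1* with 18762 at 2 h and 16308 at 0 h (0.20 ± 0.04). The lowest ratio was that of the sulfite reductase gene *met10* of sulfate assimilation, with 3716 at 2 h and 5527 at 0 h (-0.57 ± 0.08). The sulfate transporter gene *sul2* rose, with 1617 at 2 h and 840 at 0 h (0.95 ± 0.08).

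Nitrogen source use was among the classes with the largest share of rises, with 17 of 30 higher and 3 lower, and 0.978% of reads at 2 h against 0.438% at 0 h. Beside the uracil-regulated and racemase genes with the largest folds, smaller rises were seen in the arginine breakdown genes *car2*, for ornithine transaminase, with 23722 at 2 h and 13740 at 0 h (0.79 ± 0.04), and *aru1*, for arginase, with 19272 and 13915 (0.47 ± 0.05). The L-asparaginase genes *SPBPB8B6.05c* (857 at 2 h and 1215 at 0 h, -0.50 ± 0.07) and *SPAC977.12* (1204 and 1619, -0.43 ± 0.07) fell.

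Synthesis and salvage of purines and pyrimidines ran the other way. Of 23 genes, 14 fell and 1 rose (median -0.14), and 10 passed as lower with an SE 1.5 times larger. The adenine phosphoribosyltransferase gene *apt1*, which salvages adenine, averaged 4144 at 2 h and 5409 at 0 h (-0.38 ± 0.04), and the pyrimidine genes *ura3* and *ura1* fell by 0.30 ± 0.04 and by 0.25 ± 0.03 on the log2 scale. The sole rise was that of *prs5*, for the enzyme that makes phosphoribosyl pyrophosphate, with 7643 and 4904 (0.64 ± 0.06).

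Vitamin and cofactor genes had 18 of 45 lower and 8 higher (median -0.13). The lowest was the thiamine uptake gene *thi9*, with 782 at 2 h and 1375 at 0 h (-0.81 ± 0.08). Outside the class by its Product text, the phosphomethylpyrimidine kinase gene *SPBP8B7.18c*, for a step of thiamine synthesis, averaged 808 at 2 h and 1437 at 0 h (-0.83 ± 0.06). A gene with the same Product, *SPBP8B7.17c*, did not pass with 1444 at 2 h and 1508 at 0 h (-0.06 ± 0.06). Rises in the class included the folate gene *thf1* (13804 at 2 h and 7940 at 0 h, 0.80 ± 0.04) and a vitamin B6 transporter gene, *SPCC576.17c* (624 and 321, 0.96 ± 0.10). The dihydrofolate reductase gene *dfr1* fell, with 2891 at 2 h and 4345 at 0 h (-0.59 ± 0.04).

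Phosphate genes split. Of 19 members, 7 rose and 5 fell. The acid phosphatase gene *pho1* averaged 9984 at 2 h and 18606 at 0 h (-0.90 ± 0.06), the fall under 2-fold with the second largest Wald value after *wis2*. The phosphate transporter gene *pho84* averaged 6426 at 2 h and 9592 at 0 h (-0.58 ± 0.05), whereas its paralogue *pho842* averaged 5907 and 3929 (0.59 ± 0.08). Of the same Product, *pho841* fell (3027 at 2 h and 3719 at 0 h, -0.30 ± 0.06) and *pho843* did not pass (1848 and 1766, 0.06 ± 0.05). The gene *pho7*, for the activator of *pho1*, *pho84* and *pho842*, rose (2964 at 2 h and 2031 at 0 h, 0.55 ± 0.06). That was the direction of *pho842* and opposite to *pho1*, *pho84* and *pho841*.

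**Figure D3:**
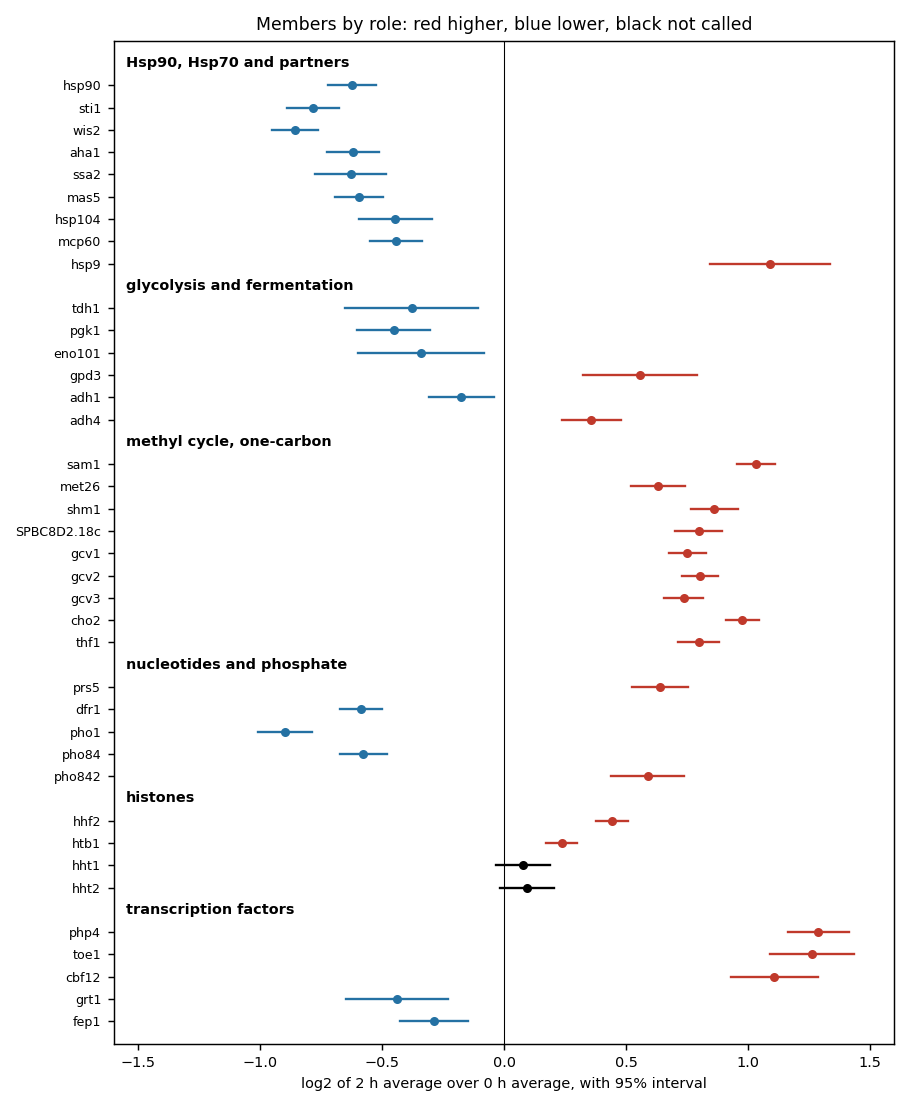
Log2 ratio of 2 h over 0 h for members of 6 roles, each point with its 95% interval from the deposited standard error (red rose, blue fell, black did not pass). The members were picked after their values were seen and do not span their classes: the chaperones drawn sit between -0.86 and -0.44 except *hsp9* at 1.09, and the methyl cycle genes drawn lie between 0.63 and 1.03.

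Among regulators, rises outnumbered falls. Of 83 DNA-binding transcription factors, 28 rose and 7 fell (median 0.08), and 18 passed as higher with an SE 1.5 times larger. The iron-economy repressor gene *php4* averaged 2337 at 2 h and 957 at 0 h (1.29 ± 0.06), and the gene for the iron-responsive repressor of uptake, *fep1*, 1902 and 2320 (-0.29 ± 0.07). The zinc finger gene *toe1* rose by 1.26 ± 0.09 and the CSL family gene *cbf12* by 1.11 ± 0.09 on the log2 scale, and *SPAC11D3.17* passed 2-fold as well, with 1517 and 744 (1.03 ± 0.06). The lowest ratio was that of *SPAC2H10.01*, with 529 at 2 h and 816 at 0 h (-0.62 ± 0.12). The most abundant factor, *zip1*, did not pass, with 9142 and 9489 (-0.05 ± 0.04).

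Cyclins and serine/threonine kinases rose in 35 of 86 cases and fell in 4 (median 0.09), and 69 of the 86 had a higher average at 2 h. The rises in the class were small, and 9 passed as higher with an SE 1.5 times larger. The class was built from Product text and leaves out the eIF2 alpha kinase genes, which are given below. Its highest were *ppk8* with 820 at 2 h and 569 at 0 h (0.53 ± 0.07) and *srk1*, for a kinase activated by the stress MAP kinase, with 1641 and 1234 (0.41 ± 0.07). The G1 cyclin gene *puc1* averaged 472 at 2 h and 363 at 0 h (0.38 ± 0.10). The lowest of the class was the pheromone pathway kinase gene *byr1*, with 1575 and 2043 (-0.38 ± 0.05).

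Most histone genes rose. Of 10 kept histone genes, 8 rose and 0 fell by the Wald test, with 0 lower at an unadjusted p under 0.05 (median 0.21). The highest was the H4 gene *hhf2*, with 9568 at 2 h and 7038 at 0 h (0.44 ± 0.03), and the most abundant was the only H2B gene *htb1*, with 52055 and 44212 (0.24 ± 0.03). The H3 genes *hht1* (17740 at 2 h and 16808 at 0 h, 0.08 ± 0.06) and *hht2* (13322 and 12478, 0.09 ± 0.06) did not pass. The copies are near-identical, which leaves reads between them uncertain. Chromatin remodelers and modifiers lay under the background, with 13.0% of members higher and 6.5% lower.

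Genes of RNA processing, replication and division were called less often than all kept features. Splicing factors had 8 of 78 higher and 11 lower (median -0.0016), mRNA cleavage, export and decay 5 of 60 and 7, replication 7 of 54 and 6, and kinetochore, spindle and cohesin genes 10 of 116 and 10, beside 35.4% called in all. A few members did change. The gene for the ribonucleotide reductase inhibitor, *spd1*, averaged 4541 at 2 h and 3233 at 0 h (0.49 ± 0.05), and the DNA polymerase delta gene *cdm1* 1086 and 779 (0.48 ± 0.09).

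Genes of polarity and membrane signalling rose in shares near the background and had few falls. Small GTPases with their exchange factors and activators had 16 of 84 higher and 1 lower (median 0.04), close to the 19.0% background in rises. Actin, septum and polarity genes had 12 of 61 higher (19.7%) and 1 lower (median 0.06). The shares that fell, 1.19% and 1.64%, lay under the 16.4% of all kept features. With an SE 1.5 times larger, 8 of the 84 and 1 of the 61 passed as higher. The actin gene *act1* did not pass with 44852 at 2 h and 42886 at 0 h (0.06 ± 0.05). Proteins specific to *Schizosaccharomyces* were close to the background in both directions, with 31 of 169 higher and 22 lower.

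**Figure D4:**
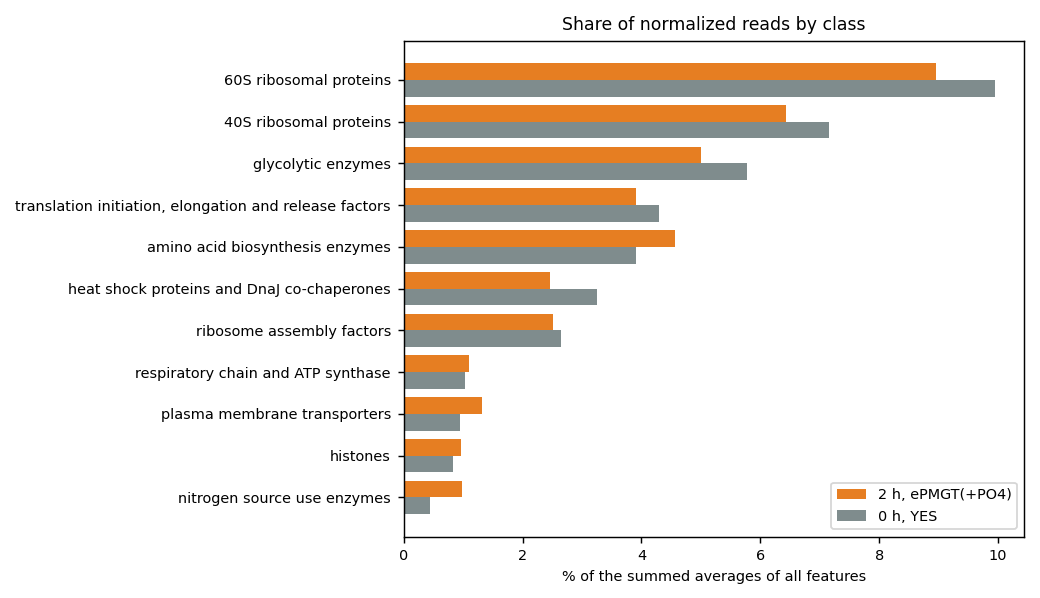
Share of all normalized reads taken by 11 classes at 2 h in ePMGT(+PO4) (upper bar of each pair) and at 0 h in YES (lower bar), in percent of the summed averages. The 60S ribosomal proteins took 8.95% at 2 h and 9.95% at 0 h, and nitrogen source use enzymes 0.978% at 2 h and 0.438% at 0 h.

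Genes that share a Product description did not always move together. In 46 sets of coding genes with the same text, at least 1 gene rose and at least 1 fell, and the pairs named here were chosen after their values were seen. The eIF2 alpha kinase gene *hri1* averaged 883 at 2 h and 435 at 0 h (1.02 ± 0.07), while *hri2* averaged 1542 and 2062 (-0.42 ± 0.05) and *gcn2* did not pass with 2542 and 2457 (0.05 ± 0.04). These kinases slow translation initiation under stress. The sterol desaturase gene *erg32* averaged 2432 at 2 h and 1139 at 0 h (1.09 ± 0.05), and its partner *erg31* 2985 and 3643 (-0.29 ± 0.06), so the larger of the pair at 0 h fell and the smaller rose.

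Further sets split in the same way. The ammonium transporter gene *amt1* rose to 2507 at 2 h, against 1063 at 0 h (1.24 ± 0.07), and *amt2* fell to 2415, against 2759 at 0 h (-0.19 ± 0.05). The phosphatidylserine decarboxylase genes *psd2* and *psd1* averaged 1595 and 1823 at 2 h, against 1221 and 2092 at 0 h (0.39 ± 0.05 and -0.20 ± 0.06). The 14-3-3 genes *rad25* and *rad24*, for phosphopeptide-binding adaptors, changed by 0.23 ± 0.04 and -0.18 ± 0.05.

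Antisense RNAs rose in 78 of 336 cases (23.2%) and fell in 45 (13.4%), and 11 rose and 4 fell by 2-fold or more. All kept features had 19.0% higher and 16.4% lower, and those with a mean under 500 had 19.9% and 9.92%. The antisense shares were thus not far from those of all features of low level. Many of the antisense RNAs are themselves in that set, so the likeness is partly built in. With an SE 1.5 times larger, 33 passed as higher and 19 as lower. The library kit kept strand, but the sources used here do not state the strand setting of the counting, so reads of a gene and its antisense partner may not be fully separated. For 156 antisense RNAs named after a kept gene, both members of the pair had a test. Of the 156, 55 antisense RNAs and 48 genes passed, and neither share lay above the 35.4% called among all kept features. In 20 pairs both passed, 13 of them in opposite directions and 7 in the same one. Whether the count of 20 or its split differs from what the separate shares would give was not tested. The antisense RNA was lower and the gene higher in 7 pairs, and the reverse held in 6.

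One pair was that of *abc3*, for a vacuolar heme exporter. Its antisense RNA *abc3-antisense-1* averaged 73.5 at 2 h and 208 at 0 h (-1.50 ± 0.19), and *abc3* itself 2563 and 1097 (1.22 ± 0.06). The autophagy gene *atg1801* averaged 513 at 2 h and 416 at 0 h (0.30 ± 0.09), and *atg1801-antisense-1* 56.1 and 116 (-1.04 ± 0.21). In the reverse direction, *rpl1002-antisense-1* averaged 178 at 2 h and 31.9 at 0 h (2.48 ± 0.20), while *rpl1002*, for a ribosomal protein, averaged 10104 and 12290 (-0.28 ± 0.07). These pairs were chosen after their values were seen.

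Intergenic RNAs rose in 48 of 191 cases (25.1%) and fell in 17 (8.9%). All kept features with a mean under 500, which include many of them, had 19.9% and 9.92%. The most abundant non-coding RNA was *prl53*, with 74571 at 2 h and 62400 at 0 h (0.26 ± 0.02), among the 10 largest gains of reads. Small nucleolar RNAs were mixed, with 2 of 20 higher and 3 lower, and the libraries were selected for poly(A) tails that most of these RNAs lack.

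The 2-fold line divided features that differed little. Just past it on the upper side were *hri1*, *isu1*, for a scaffold of iron-sulfur cluster assembly (10016 at 2 h and 4967 at 0 h, 1.01 ± 0.04), and *mug147* (306 and 153, 1.00 ± 0.18). Just short of it were *ght5*, a glucose transporter gene (4953 and 2484, 1.00 ± 0.11), *cho2* and *SPNCRNA.737* (352 and 180, 0.97 ± 0.11). On the lower side *atg1801-antisense-1*, *SPNCRNA.616* (49.1 at 2 h and 100 at 0 h, -1.03 ± 0.22) and the ribosomal RNA *SPRRNA.46* (82.8 and 178, -1.11 ± 0.25) lay just past it, and *SPNCRNA.1424* (92.6 and 183, -0.99 ± 0.17) just short. At the level for keeping, *SPNCRNA.1088* (81.0 at 2 h and 100.3 at 0 h, -0.31 ± 0.18) was kept, and *SPNCRNA.1149* (99.4 and 70.0, 0.50 ± 0.22) was not.

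Several classes with a median under 0 at 2 h stood in different places later, with the same 0 h libraries as the base of each value. Heat shock and DnaJ genes had a median of -0.11 at 2 h, 0.01 at 4 h and -0.03 at 8 h. With a minimum average of 500, their 2 h median was -0.18. Glycolytic genes, which had no stable direction by count at 2 h, had medians of -0.15, 0.18 and 0.24. Among single genes, *hsp90* had log2 ratios of -0.62 ± 0.05 at 2 h, 0.06 ± 0.05 at 4 h and -0.18 ± 0.05 at 8 h. In the same order *pgk1* had -0.45 ± 0.08, 0.17 ± 0.08 and 0.13 ± 0.08. Ribosome assembly factors had medians of -0.12, -0.20 and -0.35, and 60S ribosomal proteins -0.17, -0.07 and -0.27. The acid phosphatase gene *pho1* had -0.90 ± 0.06, -0.23 ± 0.06 and 0.05 ± 0.06. The values are given side by side, and no test was made between the times.

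**Figure D5:**
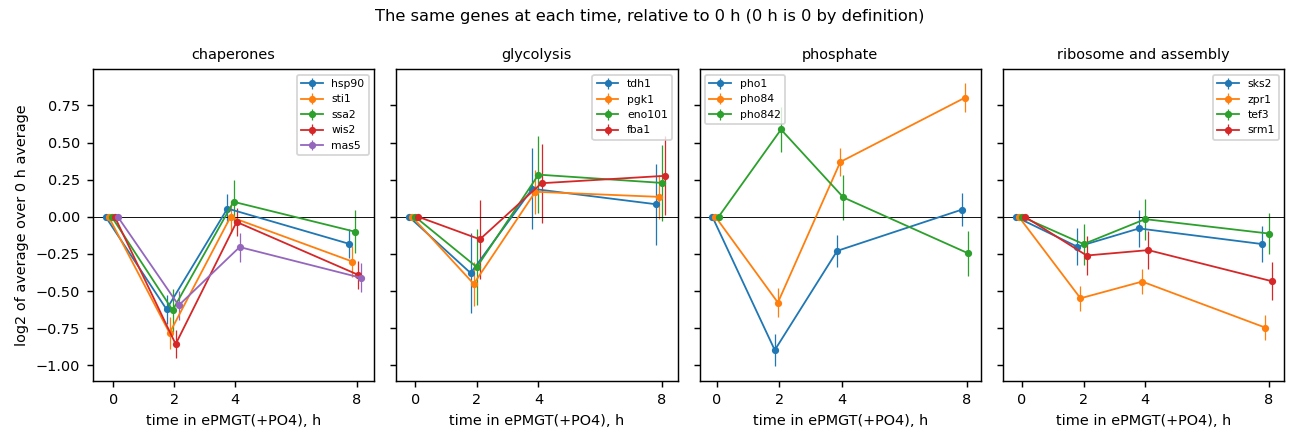
Log2 ratio over the 0 h average at 2, 4 and 8 h in ePMGT(+PO4) for chaperone, glycolytic and phosphate genes and for *sks2*, *zpr1*, *tef3* and *srm1*. Bars are 95% intervals from the deposited standard errors, and 0 h is set at 0. The panel titled ribosome and assembly holds no member of the ribosomal protein or assembly classes. In it, *sks2* is of the heat shock class and *tef3* of the translation factors. At 2 h *hsp90* is at -0.62 and at 4 h at 0.06, while *zpr1* is at -0.55 at 2 h and -0.75 at 8 h.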

How the data were processed

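Per the labels and the methods of the paper, poly(A)+ RNA was purified after hot phenol extraction, made into stranded paired-end libraries, mapped with HISAT2 2.1.0 to assembly ASM294v2 with exon counts from HTSeq 0.10.0. DESeq2 (version not stated) gave the authors' comparisons of every time against 0 h. Each of 3 deposited tables holds group averages, a signal of read counts divided by size factors, and the standard error of the log2 ratio as the authors' fit gave it. The tables also hold the authors' own fold changes, test statistics and p-values, which were not used. The tables do not hold the depth of each library.

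The log2 ratio of the deposited 2 h and 0 h averages was divided by the deposited standard error (Wald test, 2-sided, normal), and p-values were adjusted over all 6490 features with both (Benjamini-Hochberg). The standard errors draw on every library in the authors' fit, which may exceed the libraries used here. In simulated data for 2 h against 0 h, with 6402 genes, 64% of 50 genes changed 1.2-fold and 96% of 50 changed 1.5-fold were recovered. Of the 190 calls there, 10 were of genes without a change. The same dispersions made and tested those data, so they do not probe whether the deposited standard errors are right. A far smaller part of the genes changed there than was called here. Classes came from the Product text, with the members, lists and rules chosen while earlier results of these data were known, and the lists were mended by that text after values were seen. Per class with at least 5 kept features, the named genes are the 2 highest and 2 lowest that passed and the most abundant. The 10 largest gains, losses and Wald values under 2-fold in each direction, features next to a threshold, and genes singled out after their values were seen are named too. Alternatives covered the level for keeping, scaling, pseudocount, standard error, adjustment and the fold tested against. No sequence or coordinate is given, as the genome used here is of another build. Python 3.11.15, numpy 2.4.6, scipy 1.17.1 and pandas 2.3.3 were used.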

Additional observations from a re-analysis of the deposited data

How the results depend on the processing

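The count of features higher at 2 h (1023) became 465 with a standard error 1.5 times the deposited one and 346 when tested against a 1.1-fold change, and the count lower (879) became 266 and 141. The 90 features higher by 2-fold or more stayed within 1.5 times of that count in all 11 alternatives run. The 7 lower by 2-fold or more became 21 with a minimum average of 10 or with none, 2 with a minimum of 500 and 4 when tested against a 1.5-fold change. The number of class medians above that of all kept features ran from 35 to 39 around 36, and the number of classes with a smaller share of reads at 2 h from 18 to 22 around 19. Of the 303 named features, 97 no longer passed with the standard error 1.5 times larger, against 6 at most of those compared under the other 9 alternatives. With a minimum average of 500, only 262 of the 303 were kept and could be compared. No alternative could reverse the sign of a feature that passed, as the shifts made were smaller than any log2 ratio that passed. Scaling to equal totals moved every log2 ratio by 0.0137. With standard errors rebuilt from the dispersion of features of like level, 1048 were higher and 933 lower, and 1788 of these 1981 were also called with the deposited ones. Of 610 class medians compared, 4 moved by more than the median standard error, all with a minimum average of 500. Many of the 610 could not move, because the settings of the standard error and the adjustment leave a median as it is. No paired analysis was possible because the tables hold averages and not the values of each library, and leaving out a replicate was not run for the same reason.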

Other observations

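Iron-sulfur cluster assembly and sterol genes were called in shares near or under those of all kept features, 19.0% higher and 16.4% lower. Of 24 assembly factors 3 rose and 4 fell (median -0.03), with *tah18*, for a reductase of the cytosolic pathway, at 1178 at 2 h and 746 at 0 h (0.66 ± 0.06) and *ssc1*, for the mitochondrial Hsp70, at 31193 and 41533 (-0.41 ± 0.07). Of 26 mitochondrial carriers 8 rose (30.8%) and 5 fell (19.2%), led by the glutamate or glycine carrier gene *ymc1* (2583 at 2 h and 1850 at 0 h, 0.48 ± 0.06) and the iron carrier gene *mrs3* (1084 and 775, 0.48 ± 0.07). Of 25 sterol synthesis genes 4 rose (16%) and 3 fell (12%).

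Among ubiquitin enzymes, the gene for the deubiquitinase *sst2*, a homologue of human AMSH that acts on endosomes, averaged 1299 at 2 h and 813 at 0 h (0.68 ± 0.06), and the F-box gene *pof14* 352 and 231 (0.61 ± 0.11). The abundant conjugating enzyme gene *ubc4* fell, with 13373 at 2 h and 15572 at 0 h (-0.22 ± 0.05). Meiosis, mating and sporulation genes had 15 of 63 higher (23.8%) and 2 lower (3.17%), beside 19.0% and 16.4% of all kept features. The highest ratio was that of *mfc1*, for a copper transporter of the spore membrane (125 at 2 h and 53.4 at 0 h, 1.23 ± 0.16).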
